A study of Homo sapiens with 3 samples.

Results

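The 8 genes described here are those of the tetrahydrobiopterin cofactor and of monoamine oxidation: GCH1, PTS, SPR, GCHFR, PCBD1, QDPR, MAOA and MAOB. They were taken by symbol, with Ensembl identifiers named in GENCODE 29, from a table of 60660 genes, and all 8 were found, each under 1 identifier. The table holds 3 RNA-seq libraries of SH-SY5Y, an established human neuroblastoma line, labelled replicates 1, 2 and 3 and each made from a separate flask of adherent cells at about 60% confluency. The labels name 1 cell line, no treatment, no control line and no genetic change, so the comparisons are between genes within the same libraries. Tests measure the spread between 3 flasks of 1 line and say nothing about other lines or tumours. Values are FPKM, that is, fragments divided by transcript length in kilobases and by the size of the library, and errors are SDs over the 3 libraries (n = 3).

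Tetrahydrobiopterin is the cofactor of the aromatic amino acid hydroxylases, among them tyrosine hydroxylase, which starts catecholamine synthesis, and of the nitric oxide synthases. It is made from GTP in steps catalysed by the products of GCH1, PTS and SPR, is oxidised each time a hydroxylase turns over, and is restored by the products of PCBD1 and QDPR. At the other end of the pathway, monoamine oxidases A and B, flavin enzymes of the outer mitochondrial membrane, deaminate noradrenaline, dopamine and serotonin. Sympathetic neurons are known for monoamine oxidase A, whereas monoamine oxidase B is best known from glia, platelets and serotonergic neurons.

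All 8 genes lay above 1 FPKM, the level used here, by limma's moderated test on log2(FPKM + 0.1) with Benjamini-Hochberg adjustment over all genes tested. Its SEs and p-values rest in part on a spread between flasks that is pooled over all genes tested. PCBD1, for example, had an SD of 0.012 on the log2 scale and an SE of 0.065. Of the 31736 genes tested 45.5% were called above that level, and of the 16750 protein-coding genes tested 70.6%, so that 8 of 8 is to be read against a large background; 43.7% and 24.6% were called below it. The median of the 8 means was 26.5 FPKM, where the median was 1.08 FPKM over all genes tested and 9.13 FPKM over the protein-coding ones. At a level of 5 FPKM, 7 of the 8 were called above, beside 32.9% of all genes tested and 56.6% of protein-coding ones, and GCHFR was called below, as were 60.1% of all genes tested and 37.4% of protein-coding ones.

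**Figure D1:**
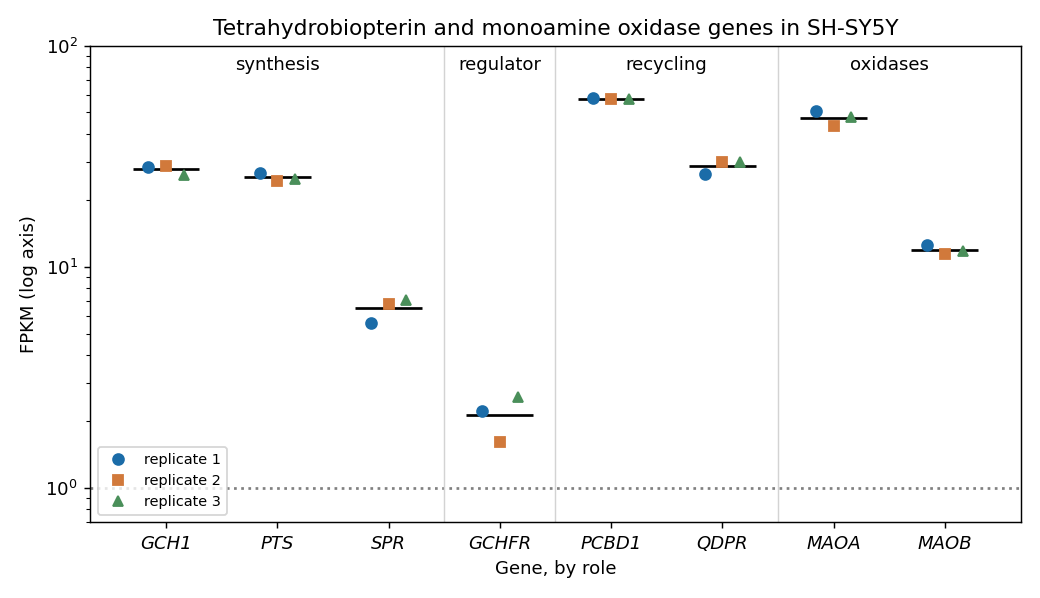
FPKM of the 8 genes on a log axis, grouped by role; each symbol is 1 library, the bar is the mean of the 3 and the dotted line is 1 FPKM. PCBD1 and MAOA were highest, at means of 57.7 and 47.3 FPKM, and GCHFR was lowest at 2.14 FPKM.

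Because MAOA and MAOB are related genes that lie side by side, the coding sequences were compared first, to see whether reads of 50 bases can tell them apart. In GENCODE 29 on GRCh38 MAOA occupies chromosome X, 43654907 to 43746824, on the plus strand and MAOB 43766611 to 43882447 on the minus strand, so that their 3' ends face each other over 19.8 kb. Their coding sequences, of 1581 and 1560 bases, were identical at 72.2% of 1553 aligned bases, and the longest identical run was 41 bases, shorter than a read. That run is shown in capitals, in the strand of each transcript, with the coding bases on either side. It lies within exon 12 in both genes, at the part of the enzyme where the cysteine that binds FAD is found. The stretch printed begins in exon 11 and spans chrX:43740727-43742038 for MAOA-201 and chrX:43775184-43778693 for MAOB-201, with the intron between the exons left out.
MAOA: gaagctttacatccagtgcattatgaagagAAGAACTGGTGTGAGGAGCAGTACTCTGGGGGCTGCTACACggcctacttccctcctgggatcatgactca
MAOB: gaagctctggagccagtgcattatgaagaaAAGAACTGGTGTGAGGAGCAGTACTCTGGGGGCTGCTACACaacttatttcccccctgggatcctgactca
No word of 50 bases of the longest coding transcript of MAOA or MAOB was found in a transcript of any other gene, on either strand. The same held for GCH1, PTS, SPR, PCBD1 and QDPR. The search was for exact words, so it does not cover reads aligned with mismatches. The base just before the run differs between the oxidases (g in MAOA, a in MAOB), and before it the bases are identical again. Some reads of 50 bases there would thus differ little between the genes, and how they were assigned was not tested.

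GCHFR was the exception among the 8. In GCHFR-201, exons 2 and 3 lie within exon sequence of DNAJC17, a gene of a DNAJ family protein on the other strand, in 1 of 12 DNAJC17 transcripts. DNAJC17 stood at 22.4, 21.2 and 22.2 FPKM in replicates 1, 2 and 3. Of the 777 bases of GCHFR-201, 74.6% are also DNAJC17 exon, and of its 252 coding bases 85.7%. The start of the coding sequence is shown, coding bases 1 to 81, spliced from exons 1 and 2 within chr15:40764181-40765871 on the plus strand of GRCh38, with capitals for the bases that DNAJC17 exons cover on the other strand.
GCHFR: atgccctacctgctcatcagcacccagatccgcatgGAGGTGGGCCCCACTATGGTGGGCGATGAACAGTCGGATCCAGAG
Over its 6 coding transcripts, between 64.4% and 93.3% of 50-base words were shared with DNAJC17 in the opposite orientation. The libraries were made with a stranded kit, but no source used here states whether counting used the strand, so the level of GCHFR is uncertain and reads of the pair may not have been told apart.

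Of the synthesis genes, GCH1 and PTS stood close together and SPR lower. GCH1 encodes GTP cyclohydrolase 1, the first and rate-limiting enzyme (chromosome 14, 54842008 to 54902852), and stood at 28.4, 28.6 and 26.0 FPKM in replicates 1, 2 and 3. PTS encodes the second enzyme, 6-pyruvoyltetrahydropterin synthase (chromosome 11, 112226365 to 112269955), and stood at 26.7, 24.6 and 25.0 FPKM. SPR encodes sepiapterin reductase, which completes the cofactor (chromosome 2, 72887360 to 72892158), and stood at 5.61, 6.80 and 7.08 FPKM. The ranges of GCH1 and PTS over the libraries overlapped, and every SPR value lay below every value of the other two. Above the 1 FPKM level the log2 distance was 4.66 for GCH1 (SE 0.07, limma adjusted p = 3.11e-05), 4.54 for PTS (SE 0.07, limma adjusted p = 3.07e-05) and 2.58 for SPR (SE 0.10, limma adjusted p = 0.000180). GCH1 exceeded SPR by 2.08 ± 0.23 on the log2 scale and PTS exceeded SPR by 1.96 ± 0.24, each in 3 of 3 libraries, ratios of means of 4.26 and 3.91. GCH1 exceeded PTS by only 0.12 ± 0.09 on that scale, again in 3 of 3 libraries.

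GCHFR, the feedback regulator whose protein binds GTP cyclohydrolase 1 and mediates its inhibition by the cofactor (chromosome 15, 40764020 to 40767710), was the lowest of the 8. It stood at 2.22 FPKM in replicate 1, 1.61 in replicate 2 and 2.58 in replicate 3, a mean of 2.14 ± 0.489, with a log2 distance of 1.00 above the 1 FPKM level (SE 0.16, limma adjusted p = 0.00842). Rescaled to TPM, which lowers all genes of a library alike, the distance was 0.54 (limma adjusted p = 0.0492). GCH1 exceeded GCHFR in each library, with a mean log2 difference of 3.65 ± 0.39 and a ratio of means of 12.9; the smallest of the 3 differences was 3.28. This ratio rests on a GCHFR value that may hold reads of DNAJC17.

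Both recycling genes were abundant. PCBD1 encodes pterin-4a-carbinolamine dehydratase (chromosome 10, 70882280 to 70888784) and had the highest mean of the 8, at 58.2, 57.4 and 57.4 FPKM. QDPR encodes quinoid dihydropteridine reductase, which returns the oxidised cofactor to its active form (chromosome 4, 17460261 to 17512234), and stood at 26.2, 29.7 and 29.8 FPKM. PCBD1 lay above QDPR in every library, by 1.01 ± 0.12 on the log2 scale, a ratio of means of 2.02. Both were called above 1 FPKM (limma adjusted p = 2.99e-05 for PCBD1 and 3.31e-05 for QDPR). PCBD2, a paralog of PCBD1 with the same activity, stood at 4.89 ± 0.799 FPKM and lay below PCBD1 in each library, with a ratio of means of 11.8 and a log2 difference of 3.55 ± 0.22.

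Of the monoamine oxidases, MAOA was the higher in each library. MAOA stood at 50.8 FPKM in replicate 1, 43.4 in replicate 2 and 47.6 in replicate 3, and MAOB at 12.5, 11.4 and 11.9. The ranges were far apart, and the within-library log2 difference of 1.97 ± 0.05 had the smallest SD of the 8 gene pairs given here. The ratio of means was 3.96, and MAOA made up 80.2%, 79.2% and 80.0% of the summed FPKM of both genes in replicates 1, 2 and 3. Both were called above 1 FPKM (log2 distance 5.43, SE 0.08, limma adjusted p = 3.01e-05 for MAOA, and 3.45, SE 0.07, limma adjusted p = 4.32e-05 for MAOB). FPKM compares genes per length.

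**Figure D2:**
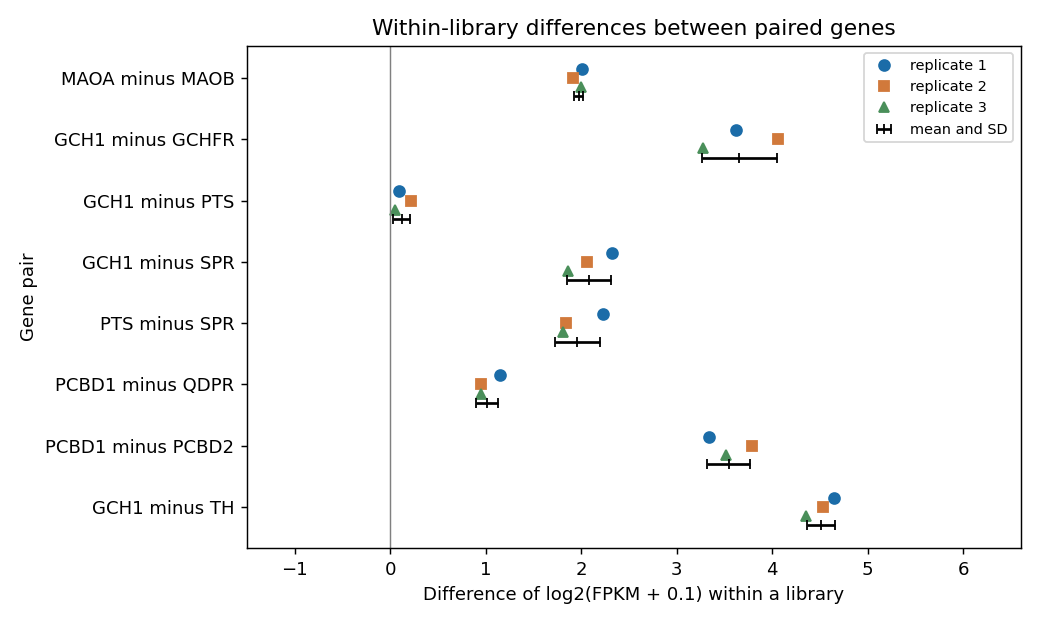
Difference of log2(FPKM + 0.1) between the genes of 8 pairs; each symbol is 1 library, and the black bar below is the mean with its SD over 3 libraries. MAOA minus MAOB lies at 1.97 with little spread, and GCH1 minus PTS lies closest to 0, at 0.12.

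The sign-flip test used for pairs is exact and two-sided, and with 3 libraries it cannot give a p under 0.25, so none of the pair differences could pass 0.05. Of 10 pairs compared, 8 are given here, and in all 8 the libraries had the same sign (exact p = 0.25, and 0.278 after Benjamini-Hochberg adjustment over the 10).

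In the order of the means, PCBD1 came first, followed by MAOA, QDPR, GCH1, PTS, MAOB, SPR and GCHFR. Neighbours whose ranges overlapped were QDPR and GCH1, with a log2 difference of 0.05 ± 0.16 and QDPR higher in 2 of 3 libraries, and GCH1 and PTS. The other neighbours had ranges that did not overlap, from a log2 difference of 0.29 ± 0.10 between PCBD1 and MAOA to 1.58 ± 0.38 between SPR and GCHFR. PTS and MAOB differed by 1.08 ± 0.01, an SD smaller than the 0.05 of MAOA minus MAOB. Placed among 19680 protein-coding genes of the table, the means ran from the percentile 42.1 (GCHFR) and 52.3 (SPR) through 62.0 (MAOB), 76.6 (PTS), 78.2 (GCH1) and 78.7 (QDPR) to 86.8 (MAOA) and 89.5 (PCBD1). Around the middle of the coding genes, therefore, stood the regulator and the last synthesis enzyme.

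The libraries differed little for most of the 8. The SD of log2(FPKM + 0.1) had a median of 0.09 over the 8 genes and of 0.11 over 12222 protein-coding genes whose mean reached 1 FPKM, and 3 of the 8 lay above that second value. Depth was estimated, from the even steps of low values, at about 21700000, 28450000 and 43350000 reads in replicates 1, 2 and 3. At this depth, and with each gene's longest coding transcript as its length, GCHFR rested on about 28, 27 and 66 reads and MAOA on about 5775, 6472 and 10802. The coefficient of variation over libraries was 22.9% for GCHFR, where counting error alone would give 17.1%, and 4.35% for PTS, where it would give 4.30%. For MAOA it was 7.82% against 1.18%, for QDPR 7.14% against 2.92%, for GCH1 5.32% against 2.13%, for MAOB 4.73% against 3.50% and for SPR 12.1% against 6.58%. PCBD1 varied by 0.811%, below the 2.73% of counting error. By ratio to counting error, PTS, GCHFR and MAOB lay closest above it and MAOA farthest. The counting values leave out differences between the flasks.

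**Figure D3:**
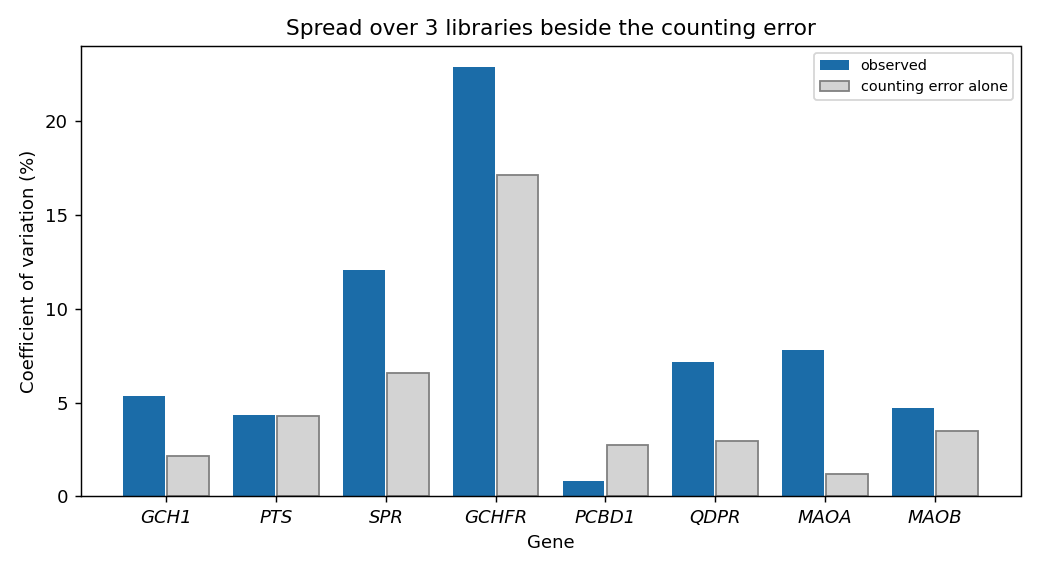
Coefficient of variation of FPKM over the 3 libraries (blue) for each of the 8 genes, beside the value that counting error alone would give at the estimated depth (grey). GCHFR reached 22.9%, and PCBD1, at 0.811%, lay below its counting error.

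Replicate 1 held the highest value of PTS, PCBD1, MAOA and MAOB and the lowest of SPR and QDPR. Replicate 2 held the lowest value of 5 of the 8, both oxidases among them. The share of all genes with their lowest value in replicate 2 was not examined, so this count describes the libraries and not a trait of the 8. The protein-coding genes nearest to MAOA in all 3 libraries, by the summed absolute log2 difference, were ROGDI (0.00602) and ORC2 (0.0134). For GCH1 they were C18orf21 and MRPS30, and for MAOB SLC25A14 and SMURF1; over 3 libraries of 1 condition this likeness is a description of level.

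The enzymes that use the cofactor were low, in contrast to the genes that make and recycle it. Of 8 such genes 0 were called above 1 FPKM by limma, also at an unadjusted p under 0.05, and 6 were called below, beside 24.6% of protein-coding genes tested. TH, the tyrosine hydroxylase gene, was the highest at 1.04, 1.14 and 1.175 FPKM, a level that the test did not separate from 1 FPKM (limma adjusted p = 0.148); rescaled to TPM it was called below (log2 -0.30, limma adjusted p = 0.0275). GCH1 exceeded TH in each library, by 4.51 ± 0.15 on the log2 scale, a ratio of means of 24.7. The inducible nitric oxide synthase gene NOS2 (0.979 ± 0.0799 FPKM) was called neither. The bounds of the endothelial NOS3 overlap those of ATG9B (5.97 FPKM) on the other strand. NOS3 (0.628 ± 0.182 FPKM) was called below, but not where replicate 1 (limma adjusted p = 0.0842) or replicate 3 (0.0854) was left out. The call was also lost with a pseudocount of 0.01 (limma adjusted p = 0.0664) and with no filter on low values (0.0900). The brain-type tryptophan hydroxylase gene TPH2 (0.385 ± 0.152 FPKM) was called below as well, but not without replicate 2 (limma adjusted p = 0.0746). AGMO, the alkylglycerol monooxygenase gene, was lowest at 0.0357 ± 0.0333 FPKM. The summed FPKM of these 8 genes was 3.54 to 3.86 per library, where GCH1, PTS and SPR summed to 58.1 to 60.7.

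**Figure D4:**
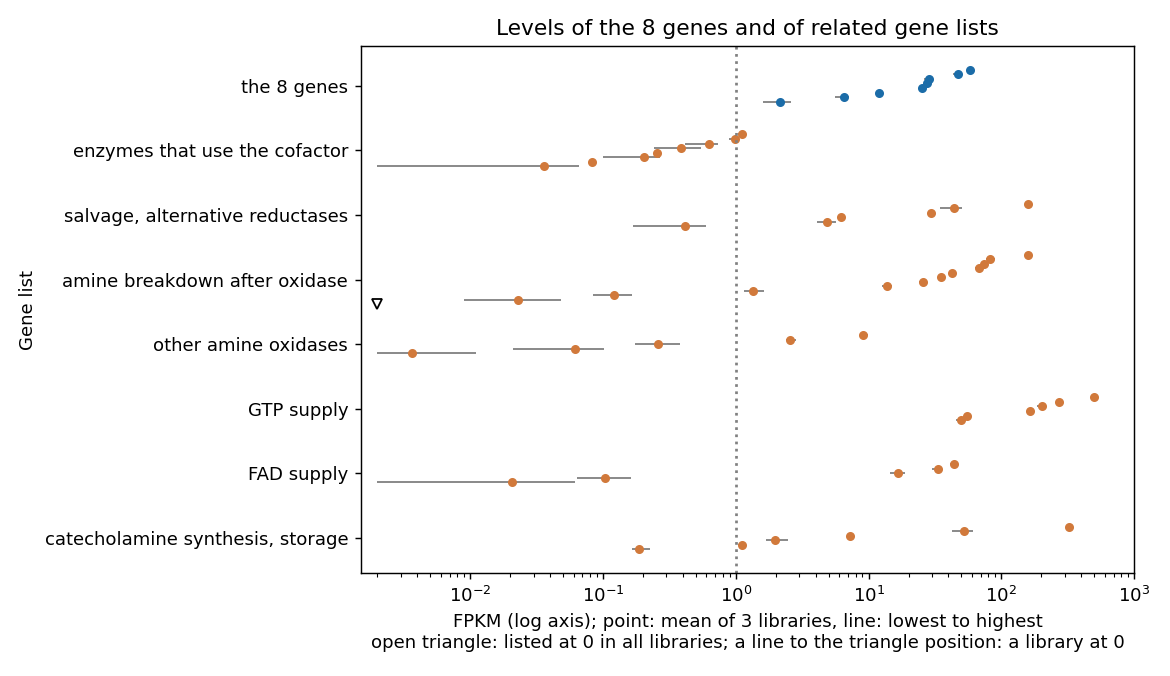
Mean FPKM on a log axis of the 8 genes (blue) and of 7 related lists (orange), with a line from the lowest to the highest library and open triangles for genes listed at 0. The genes that use the cofactor lie at or under about 1 FPKM, where the GTP supply genes all lie above it.

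The lists of related genes that follow are to be read against the 70.6% of protein-coding genes tested that were called above 1 FPKM. For salvage and alternative reduction of pterins, 5 of 6 genes were called above 1 FPKM and 1 below. The aldose reductase gene AKR1B1 was highest of this list at 160 ± 10.2 FPKM, and the carbonyl reductase gene CBR1 stood at 29.4 ± 1.70 FPKM, beside SETD4 on the other strand at 13.9 FPKM. AKR1C3 was lowest at 0.417 ± 0.222 FPKM; it was called below the level, but not with replicate 1 (limma adjusted p = 0.0525) or replicate 3 (0.0885) left out. All 6 genes of GTP supply, the substrate of the first step, were called above, from IMPDH1 (49.5 ± 3.72 FPKM) to NME2 (499 ± 6.71 FPKM), where NME2 shares 68.3% of its words with a readthrough transcript and a pseudogene.

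Beyond the oxidases, 8 of 12 genes of amine breakdown were called above 1 FPKM, 2 below and 1 neither, and 1 was listed at 0, beside the same 70.6% of protein-coding genes; with a pseudocount of 1 the count above was 9 of 12. AKR1B1, which is in this list too, was highest, followed by AKR1A1, an aldehyde reductase gene, at 82.6 ± 6.42 FPKM and the mitochondrial aldehyde dehydrogenase gene ALDH2 at 74.3 ± 1.03. ALDH1A1, the cytosolic aldehyde dehydrogenase of dopamine neurons, was listed at 0 in all 3 libraries. SULT1A3, the catecholamine sulfotransferase gene, was called neither at 1.35 ± 0.251 FPKM (limma adjusted p = 0.0554), but above with a pseudocount of 1 (log2 0.23, limma adjusted p = 0.0487), and 98.6% of its words are shared with near-identical copies such as SULT1A4.

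Of 5 other amine oxidase genes, SMOX (9.14 ± 0.727 FPKM) and PAOX (2.56 ± 0.240 FPKM), which encode polyamine oxidases, were called above, and the copper amine oxidase genes AOC1, AOC2 and AOC3 were called below, with AOC2 the highest of these at 0.261 ± 0.104 FPKM. MAOB, the lower of the monoamine oxidases, thus lay above every gene of that list in mean, and its lowest library (11.4 FPKM) exceeded the highest of SMOX (9.98 FPKM). For the FAD cofactor of the oxidases, the synthesis genes FLAD1 (44.0 ± 3.06 FPKM) and RFK (16.6 ± 2.19 FPKM) and the riboflavin transporter gene SLC52A2 (33.3 ± 2.95 FPKM) were called above, while SLC52A1 and SLC52A3 were called below. Of 4 regulators described for the monoamine oxidase promoters, CDCA7L, a repressor of MAOA, stood at 56.3 ± 4.09 FPKM, SP1 at 21.7 ± 0.753 and KLF11 at 5.53 ± 0.448, all called above 1 FPKM; at a level of 5 FPKM KLF11 was not (limma adjusted p = 0.186). A gene on the other strand of KLF11, AC104794.4, stood at 5.47 FPKM. FOXO1 stood at 2.69 FPKM in replicate 1 and at 0.447 and 0.372 in replicates 2 and 3 and was called neither; without replicate 1 it was called below (log2 -1.11, limma adjusted p = 0.00940).

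Next to the catecholamine genes, GCH1, PTS, PCBD1, QDPR, MAOA and MAOB lay between DBH (323 ± 10.3 FPKM), which makes noradrenaline, and the vesicular transporter gene SLC18A1 (7.27 ± 0.168 FPKM), and the decarboxylase gene DDC (52.6 ± 9.45 FPKM) had a range, 42.4 to 61.1, that covered those of PCBD1 and MAOA. SPR lay below SLC18A1 in each library, and GCHFR and PNMT (1.99 ± 0.425 FPKM) overlapped. Of the 6 genes in this list, TH among them, 4 were called above 1 FPKM, 1 below and 1 neither. The gene below was SLC18A2, of the other vesicular monoamine transporter, at 0.165, 0.168 and 0.226 FPKM (log2 -1.95, limma adjusted p = 0.000346); PDZD8, which overlaps its bounds on the other strand, stood at 22.0 FPKM.

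Markers of the labelled cell type and of other cells were set beside these values. Counts of markers called are to be read against all protein-coding genes tested, of which 70.6% were called above 1 FPKM and 24.6% below. All 5 sympathoadrenal markers (HAND2, GATA3, TFAP2B, ISL1 and DBH) were called above 1 FPKM, with a summed level of 1279 to 1315 FPKM per library. The bounds of HAND2 overlap those of HAND2-AS1, which stood at 427 FPKM. Of fibroblast markers, 4 of 5 were called above: PDGFRB (29.8 ± 1.91 FPKM), DCN (14.7 ± 2.14), LUM (3.95 ± 0.626) and COL1A1 (3.785 ± 0.456). The collagen gene COL1A2 was called neither at 0.921 ± 0.475 FPKM (limma adjusted p = 0.548). The summed level of the 5 fibroblast markers, mostly PDGFRB and DCN, was 57.2, 52.0 and 50.1 FPKM in replicates 1, 2 and 3. MAOA alone stood at 50.8, 43.4 and 47.6. Of 6 glial markers, which summed to 7.13 to 8.41 FPKM per library, 1 was called above. It was GFAP, at 3.62 ± 1.90 FPKM, but not with replicate 2 left out (limma adjusted p = 0.0831). The defining factor SOX10 was at 0 in 2 libraries and at 0.034 FPKM in the other. POLR2F, whose bounds overlap those of SOX10 on the other strand, stood at 47.7 FPKM. Among serotonergic markers the transcription factor gene FEV stood at 40.6 ± 4.89 FPKM, while TPH2 and the serotonin transporter gene SLC6A4 (0.0493 ± 0.0396 FPKM) were called below. Of 5 immune, 4 endothelial and 3 hepatocyte markers 0 were called above by limma, also at an unadjusted p under 0.05, with AIF1, CD3E, CDH5 and APOA1 listed at 0. The part of these cells, or of such genes in SH-SY5Y itself, in the levels of MAOA and MAOB was not tested.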

How the data were processed

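From 3 flasks of SH-SY5Y, stranded mRNA libraries were made and read as single reads of 50 bases, per the labels' protocols. Tools named in the submitters' processing notes are TopHat2 2.1.1 and Cufflinks 2.2.1, with bcl2fastq and FastQC 0.10.1, and the build is hg38; the role of each tool, the annotation release and whether counting used the strand are not stated there. The authors deposited 1 table of FPKM values per gene and library, with no further scaling between libraries stated.

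Identifiers were named from GENCODE 29 on GRCh38 (57046 of 60660 matched); of identifiers sharing a name, the one with the highest mean was kept. A value of exactly 0 is called listed at 0. The test against 1 FPKM took all genes with a value above 0 in any library, on log2(FPKM + 0.1), with an intercept-only fit of limma 3.58.1 (R 4.3.3), two-sided, at a Benjamini-Hochberg adjusted p under 0.05. Low genes appear closer to the level on this scale than they are. The test was checked on simulated data. Pairs were compared within libraries by an exact sign-flip test. Depth came from low values of genes with 1 transcript of at least 600 bases, at an assumed fragment of 200 bases. Of 2795, 2817 and 2673 such values, 97.3%, 97.7% and 97.4% came out within 0.1 of whole reads, against 20% by chance. Read numbers are approximate, and counting errors cover counting only; the floor of 3 reads per kb of effective length is 0.138, 0.105 and 0.0692 FPKM in replicates 1, 2 and 3. Words of 50 bases were searched as exact matches in all GENCODE 29 transcripts, both strands. Apart from GCHFR and DNAJC17, the overlaps named with genes on the other strand were taken from gene bounds, introns included. Other steps used Python 3.11.15 (scipy 1.17.1, numpy 2.4.6, matplotlib 3.10.9, pandas 2.3.3).

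Named by rule were the 8 genes, genes in pairs, of each related list the 3 highest and the lowest, overlapping genes on the other strand, and the 2 coding genes nearest to GCH1, MAOA and MAOB; members of lists of 6 or fewer could all be named. The members and lists were chosen with earlier results of these data known, and SULT1A3 was named after its value was seen. Some genes of the lists and 2 of the pairs are not reported here. Sequences are from GENCODE 29 transcripts; promoters and proteins were not used here. Alternatives were pseudocounts of 1 and 0.01, a level of 5 FPKM, TPM, median-ratio rescaling, other filters, summed identifiers and each library left out.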

Additional observations from a re-analysis of the deposited data

How the results depend on the processing

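The count of the 8 genes above 1 FPKM was 8 under each alternative but the level of 5 FPKM, where it was 7; without 1 library it was 8 in each case. Of the members' single values under the 11 alternatives, 87 kept their call and 1 did not: GCHFR reversed at 5 FPKM (log2 -1.21, limma adjusted p = 0.00446). Its other adjusted p-values ran up to 0.0492, in TPM. At the 5 FPKM level, which is higher, PAOX (-0.94), PNMT (-1.31), SULT1A3 (-1.83) and TH (-2.07) were called below, and PCBD2 (-0.044) and GFAP (-0.58) lay below without a call; NOS2 and FOXO1 were called below there too, and KLF11 lost its call (0.14, limma adjusted p = 0.186), so that 2 of the 4 regulators were above in place of 3. With a pseudocount of 1, SULT1A3 was called above (0.23). In TPM, TH (-0.30) and NOS2 (-0.47) were called below and PNMT was no longer called above (limma adjusted p = 0.0556). The calls of NOS3 and AKR1C3 below 1 FPKM were lost with a pseudocount of 0.01 and with no filter. Over all genes, the number called above 1 FPKM was 14446, and 14111 to 14325 without 1 library; the number called below, 13853, was 10733 to 12250 without 1 library, 40037 with no filter on low values and 5921 with a mean of at least 0.1 FPKM, settings that change how many low genes are tested. No pair difference reversed under the pseudocounts, TPM or the loss of 1 library. Libraries could not be paired between groups because all belong to 1 group, and only genes were paired, within libraries. Leaving out a library leaves 2, so those fits lean on limma's pooled spread. Depth limits GCHFR most, with about 27 to 66 reads per library.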
